A study of Mus musculus with 6 samples.

Results

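The 36 genes described here mark blood and lymphatic vessels or take part in building them: endothelial surface and secreted proteins, endothelial transcription factors, vascular receptors, their ligands, lymphatic genes and pericyte genes. They were taken from a list of symbols for these roles, and a gene was represented by the array feature that carried its symbol alone. All 36 were on the array, each with 1 feature, among 19938 genes tested. RNA came from whole bladders of mouse embryos at E14.5, in mid-gestation. In 3 samples the gene for Klf5, a zinc-finger factor active in many epithelia, was deleted on both alleles (Klf5 ∆/∆), and 3 control samples had the genotype Klf5+/+ShhGfpCre+. Each sample pooled 2 bladders and was hybridised to 1 Affymetrix Mouse Gene ST array. ShhGfpCre makes Cre recombinase in cells that express Shh, which in the bladder are those of the epithelium, and the deletion was taken to have been made with it, although the labels of the Klf5-deleted samples name only the Klf5 alleles. Vessel cells were therefore taken to keep Klf5. The labels do not say whether the pools came from separate litters, so p-values here cover only how far these pools spread.

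Vessels of the embryonic bladder grow in the connective tissue and muscle around the epithelium. Endothelial cells receive VEGF ligands through the receptor tyrosine kinases Kdr, Flt1 and Flt4, and angiopoietins through Tek, with Tie1 as a partner receptor, while PDGF-B from endothelium recruits pericytes that carry Pdgfrb. Endothelial identity is held by ETS factors such as Erg and Fli1 and by the SoxF factors Sox7, Sox17 and Sox18, and Prox1 directs the lymphatic fate.

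The values are log2 RMA expression, on which a difference of 1 is a 2-fold change. Levels of different genes cannot be compared on this scale, because each feature has its own response, so every comparison below is within a gene. Klf5 itself read 10.12, 10.34 and 10.23 in the Klf5-deleted and 10.84, 10.63 and 10.97 in the control arrays, a shift of -0.59 (adjusted p = 0.0381 by limma). That call held without control 2, with an adjusted p of 0.0167, and was lost in the other 5 fits that left out 1 array, with adjusted p up to 0.156. It was also lost with arrays centred on the median of all genes (-0.55, adjusted p = 0.061 by limma) or on housekeeping genes (-0.37, adjusted p = 0.0633 by limma). Over all genes 395 of 19938, or 1.98%, passed an adjusted p of 0.05 by limma, 318 lower (1.59%) and 77 higher (0.386%). Control 2 carried placental RNA: the mean level of 6 placental and trophoblast markers was 9.85 there and between 6.67 and 7.89 on the other 5 arrays, highest of these on Klf5-deleted 2. Tpbpa, a trophoblast gene, read 13.13 on control 2, 10.34 on Klf5-deleted 2 and 6.18 to 8.35 on the rest. Control 2 was also highest for yolk sac and liver markers, at a mean of 10.42 against 8.74 to 9.85 elsewhere. The mean of 10 leukocyte markers was highest there too, at 9.46 against 8.89 to 9.10. Lyz2 stood out among them, at 11.10 on control 2 and 9.16 to 9.50 elsewhere. Mrc1 and Cx3cr1 were highest on other arrays, and Ptprc read 7.59 on both control 2 and Klf5-deleted 2. The labels call the source urothelium, but the smooth muscle gene Acta2 read 13.97 to 14.16 on the 6 arrays, and the protocol describes extraction of whole bladders.

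None of the 36 vessel genes passed the threshold over all genes, where 1.98% of all genes did. The smallest adjusted p by limma was 0.0801, for Angpt2, and 13 of the 36 had an unadjusted p under 0.05 by limma, where 14.4% of all genes did. For 15 members, or 41.7%, all 3 Klf5-deleted arrays lay on one side of all 3 control arrays, against 20.5% of all genes. In 12 of these the Klf5-deleted arrays were lower, or 33.3% of the members against 11.8% of all genes, and in 3 they were higher, or 8.33% against 8.67%. The differences were small. Their 95% confidence intervals had a median half-width of 0.238 and lay within 2-fold in both directions for 34 of 36 genes; the intervals of Lyve1 and Angpt2 reached -1.04 and 1.16.

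By sign, 31 of the 36 members were lower in the Klf5-deleted group, with a median difference of -0.158, while 53.5% of all genes were lower and their median was -0.01; with each array centred on the median of 10 housekeeping genes only 12 of the 36 were lower, with a median of 0.059. That centring moved the median of all genes to 0.207. The housekeeping median lay at 12.16 to 12.34 on the Klf5-deleted and 12.39 to 12.52 on the control arrays. The mean of the same 10 genes lay at 12.22 to 12.28 and 12.27 to 12.32, and none of them passed (largest difference -0.28, for B2m). Each housekeeping median was set by the genes of middle level, B2m, Pgk1 and Sdha, which differed by -0.28, -0.20 and 0.06. The median of the differences of the 10 genes was -0.002. Centring on housekeeping genes adds the same amount to the difference of every gene. The members' median set against the median of all genes, -0.148, therefore cannot change. Nor can the count of members below the median of all genes, 30 of 36. Of all genes 13.3% had a difference lower than the members' median. Without control 2, the array with placental RNA, 31 were lower with a median of -0.219. Without control 1 the members' median was -0.105 and 26 were lower, and without Klf5-deleted 3 it was -0.112 and 24 were lower. Marker lists of other cell types also shifted on the deposited values. The median was -0.298 for smooth muscle, with 10 of 10 genes lower, and -0.173 for leukocytes, with 8 of 10 lower. It was 0.206 for red cell, 0.115 for neuronal and glial, and 0.698 for skeletal muscle genes. Whether the members' shift is particular to vessels was not tested. In bulk RNA fewer endothelial cells and less RNA per endothelial cell cannot be told apart.

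**Figure D1:**
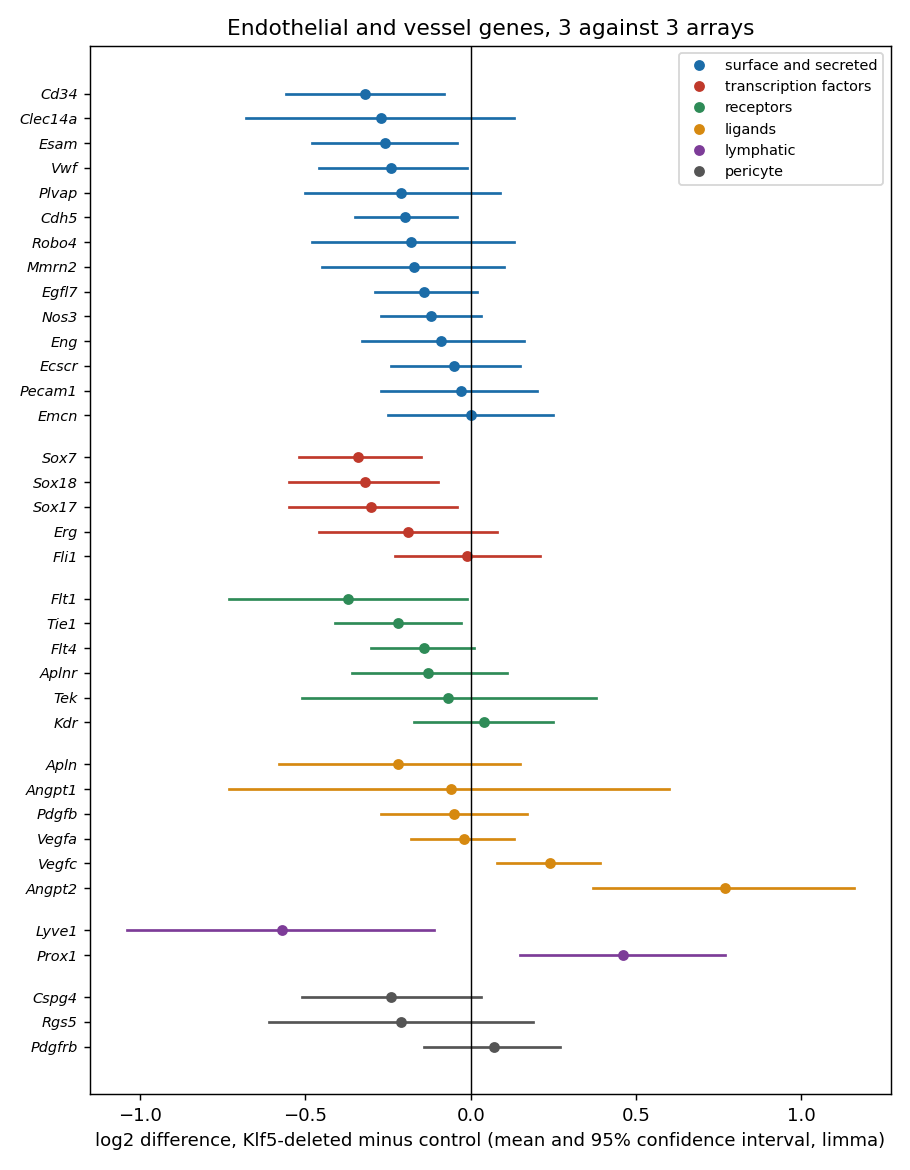
Difference in log2 level of each of the 36 genes, Klf5-deleted minus control, with its 95% confidence interval from limma over 3 against 3 arrays, grouped by role. Most points lie between -0.4 and 0.1 on the deposited values, with Lyve1 at -0.57 below and Vegfc at 0.24, Prox1 at 0.46 and Angpt2 at 0.77 above, and no gene passed the adjusted threshold on these values; centring on housekeeping genes moves every point to the right by one amount, which leaves 12 of the 36 below 0.

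**Figure D2:**
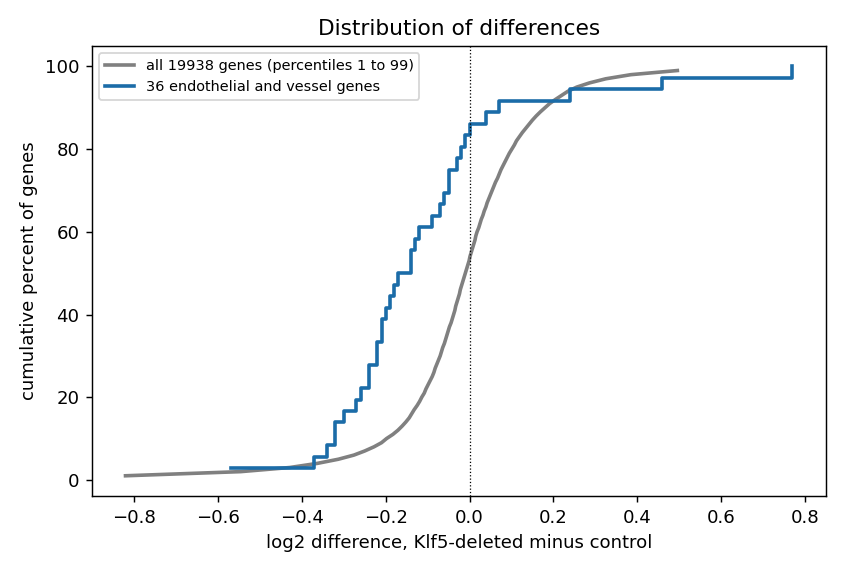
Cumulative percent of genes (y axis) against the log2 difference, Klf5-deleted minus control (x axis), for the 36 vessel genes and for percentiles 1 to 99 of all 19938 genes. The members' quartiles are -0.237 and -0.043 and those of all genes -0.089 and 0.075. Centring arrays on housekeeping genes moves both curves to higher values by the same amount, so the distance between them cannot change.

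All 14 endothelial surface and secreted genes were at or below the control mean, with a median difference of -0.174, but 4 of the 14 were lower with arrays centred on housekeeping genes. Without control 1 the median was -0.113 and 12 were lower. Cdh5, which codes for VE-cadherin of endothelial junctions, read 12.12, 12.10 and 12.02 in the Klf5-deleted and 12.33, 12.21 and 12.30 in the control arrays. The highest Klf5-deleted value lay below the lowest control value. Its difference was -0.20 (SE 0.07, adjusted p = 0.229 by limma). Cd34, a sialomucin of endothelial and some stromal and blood-forming cells, read 11.54, 11.58 and 11.38 against 11.98, 11.85 and 11.63 in controls. Its groups were also separate, and at -0.32 (SE 0.10, adjusted p = 0.218 by limma) it had the largest difference of the class.

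Esam, an adhesion molecule of endothelial tight junctions, read 9.89, 10.04 and 9.75 in the Klf5-deleted and 10.26, 10.14 and 10.07 in the control arrays, which differed by -0.26 (SE 0.09, adjusted p = 0.264 by limma). Egfl7, a protein that endothelial cells secrete into the matrix, read 10.33, 10.33 and 10.20 against 10.47, 10.41 and 10.38. For Nos3, the endothelial nitric oxide synthase, the values were 8.58, 8.62 and 8.68 against 8.78, 8.69 and 8.76. Both genes kept the groups apart by narrow margins, with differences of -0.14 and -0.12 and adjusted p of 0.421 and 0.454 by limma. With arrays centred on housekeeping genes the differences of Cdh5, Egfl7 and Nos3 turned to 0.017, 0.081 and 0.10, and those of Cd34 and Esam stayed below 0.

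The other 9 genes of the class had overlapping groups. Pecam1, the adhesion molecule CD31 that is widely used to stain vessels, read 10.53, 10.72 and 10.34 in the Klf5-deleted and 10.61, 10.50 and 10.59 in the control arrays, with a 95% confidence interval of -0.27 to 0.20. The sialomucin gene Emcn had the same mean in both groups, 11.87, with an interval of -0.25 to 0.25. Eng, a co-receptor of TGF-beta ligands, and Ecscr, an endothelial surface protein, differed by -0.09 and -0.05. The guidance receptor gene Robo4 differed by -0.18 and Mmrn2, a matrix protein of endothelium, by -0.17. Plvap, which forms the diaphragms of fenestrated endothelium, differed by -0.21, Vwf, the clotting factor stored in endothelium and platelets, by -0.24 and the lectin-like surface gene Clec14a by -0.27. The adjusted p of these 9 ran from 0.332 to 0.999 by limma.

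All 5 transcription factors of endothelium were below the control mean, with a median of -0.296, and 3 of the 5 with arrays centred on housekeeping genes, which were the SoxF factors. The SoxF genes, which act redundantly in vessel growth and arterial fate, had separate groups. Sox7 read 8.91, 8.89 and 8.95 in the Klf5-deleted and 9.40, 9.21 and 9.16 in the control arrays, with a difference of -0.34 (SE 0.08, adjusted p = 0.0945 by limma). The Klf5-deleted arrays of Sox7 lay close together, with an SD of 0.03 against 0.13 in controls.

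Sox18 read 9.16, 9.31 and 9.15 against 9.70, 9.48 and 9.41, which differed by -0.32 (SE 0.09, adjusted p = 0.172 by limma). For Sox17 the values were 7.83, 8.07 and 7.66 against 8.24, 8.09 and 8.11, with a difference of -0.30 (SE 0.11, adjusted p = 0.28 by limma); its Klf5-deleted array 2 lay just under control 2. In the fits that left out 1 array, the differences ran from -0.39 to -0.27 for Sox7, from -0.39 to -0.24 for Sox18 and from -0.40 to -0.20 for Sox17, and none of these fits passed the threshold. The ETS factors Erg and Fli1, which keep endothelial genes active, differed by -0.19 and -0.01 with overlapping groups.

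Among the 6 receptors 5 read below the control mean and their median was -0.135, but with arrays centred on housekeeping genes 2 did. The median was -0.22 without Klf5-deleted 2, where all 6 were lower, and -0.086 without Klf5-deleted 3, where 4 were. Kdr, the main signalling receptor for VEGF-A, read 10.82, 11.00 and 10.68 in the Klf5-deleted and 10.80, 10.77 and 10.81 in the control arrays. The control values of Kdr lay inside the range of the Klf5-deleted values, and the 95% confidence interval of the difference ran from -0.17 to 0.25. Flt1, a VEGF receptor that binds the ligand tightly and signals weakly, read 9.67, 9.64 and 9.38 against 9.70, 10.26 and 9.83. Its difference of -0.37 (SE 0.15, adjusted p = 0.332 by limma) was the largest among the receptors in size, and the groups did not overlap. The highest value was that of control 2, the array with placental transcripts, and trophoblast is a known source of Flt1. Without control 2 the Flt1 difference was -0.20 (adjusted p = 0.532 by limma), and the part of placental RNA in this reading was not tested.

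Flt4, the VEGF-C receptor of lymphatic and growing blood vessels, read 8.91, 8.80 and 8.82 in the Klf5-deleted and 9.05, 8.95 and 8.96 in the control arrays, with a difference of -0.14. For Tie1 the values were 9.63, 9.73 and 9.50 against 9.90, 9.74 and 9.87, with a difference of -0.22. In both genes the groups did not overlap, though the nearest arrays of Tie1 were 0.01 apart, and the adjusted p was 0.381 and 0.287 by limma. Tek, the angiopoietin receptor, differed by -0.07 and was the most variable receptor within a group, with an SD of 0.40 over the Klf5-deleted arrays. Aplnr, the apelin receptor of venous endothelium, differed by -0.13.

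For 18 of the 36 genes the RefSeq promoter table of build GRCm38.p6 held an entry, with 24 start sites in all. The 250 bases before the start site are shown for Cd34, Tie1 and Flt1, lower members with separate groups, and for the higher member Vegfc, because vascular promoters are known to be read by ETS factors and the deleted gene codes for a factor of the KLF family. Capitals mark the ETS word AGGAAG and the KLF word CCACCC, each searched on both strands, written 5′ to 3′ on the strand of the gene. The first lies on chr1:194938571-194938820 (plus strand), the second on chr4:118489850-118490099 (minus strand), the third on chr5:147726012-147726261 (minus strand) and the last on chr8:54077282-54077531 (plus strand).
Cd34: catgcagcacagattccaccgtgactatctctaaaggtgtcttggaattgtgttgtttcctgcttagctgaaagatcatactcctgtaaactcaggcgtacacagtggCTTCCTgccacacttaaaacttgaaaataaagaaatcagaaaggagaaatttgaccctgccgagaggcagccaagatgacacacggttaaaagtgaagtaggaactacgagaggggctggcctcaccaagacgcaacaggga
Tie1: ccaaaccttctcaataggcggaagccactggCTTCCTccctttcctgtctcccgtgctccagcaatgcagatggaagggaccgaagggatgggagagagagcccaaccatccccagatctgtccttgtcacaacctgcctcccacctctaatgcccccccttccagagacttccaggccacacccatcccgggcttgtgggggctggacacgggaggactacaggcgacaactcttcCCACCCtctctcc
Flt1: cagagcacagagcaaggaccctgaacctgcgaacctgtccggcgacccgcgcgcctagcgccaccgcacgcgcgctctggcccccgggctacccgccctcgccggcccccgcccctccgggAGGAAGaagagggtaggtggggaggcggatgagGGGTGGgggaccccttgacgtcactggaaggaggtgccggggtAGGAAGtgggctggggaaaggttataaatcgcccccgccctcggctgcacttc
Vegfc: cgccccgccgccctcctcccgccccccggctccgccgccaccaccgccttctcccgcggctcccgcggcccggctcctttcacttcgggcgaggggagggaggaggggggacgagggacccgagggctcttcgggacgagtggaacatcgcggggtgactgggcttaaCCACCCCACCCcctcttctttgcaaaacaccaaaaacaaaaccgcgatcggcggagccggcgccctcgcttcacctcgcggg
The ETS word occurred once before Cd34 and before Tie1 and 2 times before Flt1, and the KLF word once before Tie1 and Flt1 and 2 times, overlapping, before Vegfc. Over all members 10 of 24 windows, or 41.7%, held the ETS word, against 29.5% of the 32851 windows of the table. The KLF word was in 9 of 24, or 37.5%, against 28.1%. A match is a description of the letters and not a binding site. Vessel cells were taken to keep Klf5, and whether Klf5 acts at any of these promoters was not tested.

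Of the 6 ligands 4 were lower as deposited, 3 with arrays centred on the median of all genes and 1 with arrays centred on housekeeping genes. The median of -0.036 turned to 0.101 without Klf5-deleted 3, where 1 was lower, to 0.025 without control 1, where 2 were, and to 0.015 without control 3, where 3 were. Angpt2, which loosens the contact of endothelium and pericytes and is made by sprouting endothelium, read 10.04, 9.67 and 9.44 in the Klf5-deleted and 8.76, 8.90 and 9.19 in the control arrays. All Klf5-deleted values lay above all control values. Its difference of 0.77 (95% confidence interval 0.37 to 1.16, 1.70-fold, adjusted p = 0.0801 by limma) was the largest of the 36 genes and ranked 51 from the highest among all 19938.

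Vegfc, the ligand that draws lymphatic endothelium, read 9.05, 9.06 and 8.95 in the Klf5-deleted and 8.81, 8.72 and 8.81 in the control arrays. The groups were separate and each was tight, with SDs of 0.06 and 0.05. The difference was 0.24 (95% confidence interval 0.08 to 0.39, adjusted p = 0.15 by limma). In the fits that left out 1 array, Angpt2 differed by 0.61 to 0.91 and Vegfc by 0.21 to 0.27, and neither passed. With arrays centred on housekeeping genes both passed, at 0.98 and 0.45 with adjusted p of 0.0129 and 0.0299 by limma, in a setting where 1948 genes passed.

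Vegfa, the main attractant of blood vessels, read 10.61, 10.53 and 10.47 in the Klf5-deleted and 10.53, 10.56 and 10.60 in the control arrays. The groups overlapped fully, and the 95% confidence interval of -0.18 to 0.13 was one of the narrowest among the members. Apln, the peptide ligand of Aplnr made by tip cells, read 9.77, 9.30 and 9.51 against 10.01, 9.51 and 9.73, with a difference of -0.22 (SE 0.16, adjusted p = 0.597 by limma). Its Klf5-deleted array 1 was above controls 2 and 3. Pdgfb differed by -0.05. Angpt1, the ligand that steadies vessels and is made by pericytes and stroma, differed by -0.06 with the widest interval of the 36 genes, -0.73 to 0.60, and its Klf5-deleted arrays alone had an SD of 0.55.

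The 2 lymphatic genes differed in opposite directions. Lyve1, a hyaluronan receptor of lymphatic endothelium and of some macrophages, read 9.74, 9.75 and 10.15 in the Klf5-deleted and 10.83, 10.47 and 10.06 in the control arrays. Klf5-deleted 3 lay above control 3, so the groups overlapped, and the difference was -0.57 (95% confidence interval -1.04 to -0.11, adjusted p = 0.252 by limma). It had the largest size among the lower members. The mean level of 10 leukocyte markers was 8.92 to 9.09 in the Klf5-deleted and 8.89 to 9.46 in the control arrays, and its part in the Lyve1 reading was not tested.

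Prox1 read 7.61, 7.62 and 7.71 in the Klf5-deleted and 6.97, 7.49 and 7.10 in the control arrays. All Klf5-deleted values were higher, by 0.46 on average (95% confidence interval 0.15 to 0.77, 1.38-fold, adjusted p = 0.158 by limma). Control 2 was the nearest control. Of 6 fits that left out 1 array, Prox1 passed in 1, without control 2, at 0.61 (adjusted p = 0.0151 by limma). Adjusted p reached 0.357 by limma in the others. Housekeeping centring gave 0.68 (adjusted p = 0.0204 by limma), in a setting where 1948 genes passed. Prox1 did not pass with arrays centred on the median of all genes (adjusted p = 0.103 by limma) or with the replicate block (adjusted p = 0.24 by limma). The filter on dim genes removed Prox1, so that setting cannot test it. Prox1 is also known from neurons and skeletal muscle. Skeletal muscle markers averaged 9.28, 9.64 and 10.24 on the Klf5-deleted and 8.76, 9.63 and 8.95 on the control arrays. Their order of controls was that of Prox1, and red cell, placental, and yolk sac and liver markers had the same order. Neuronal and glial markers averaged 8.40, 8.35 and 8.67 against 8.29, 8.81 and 8.18. The part of these cell types in the Prox1 reading was not tested.

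**Figure D3:**
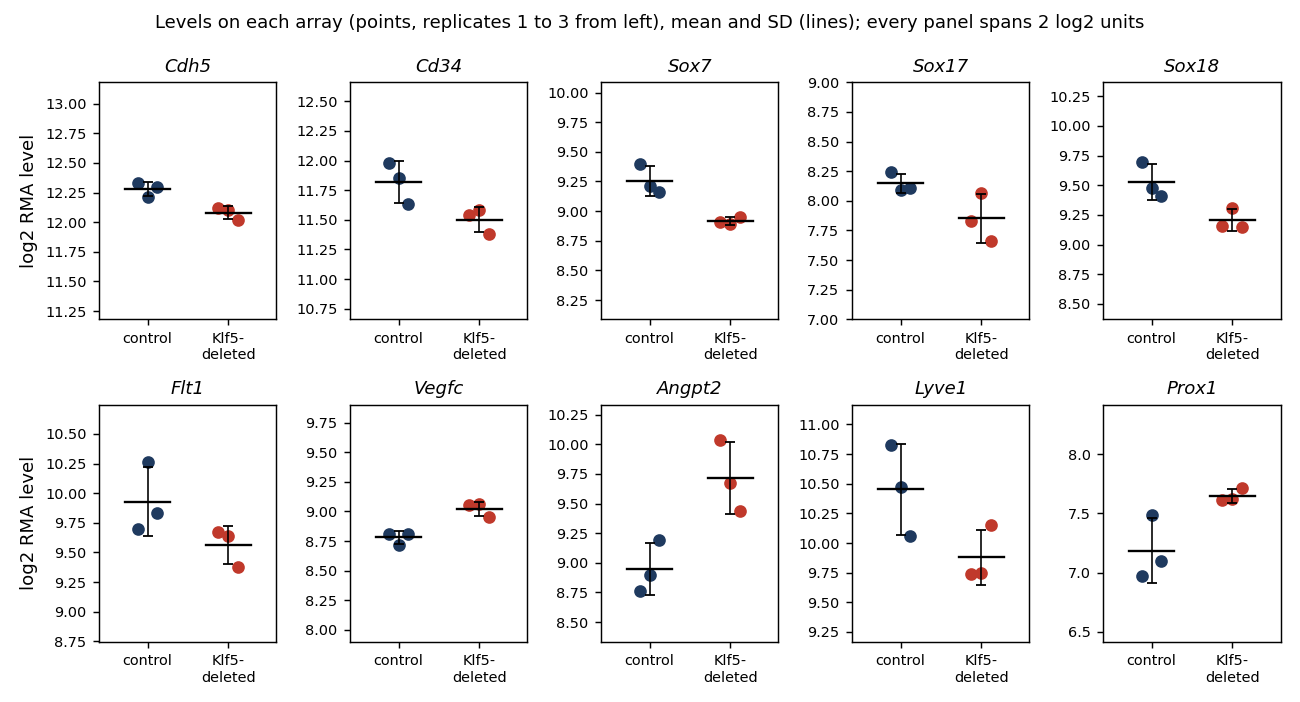
Log2 RMA level of 10 vessel genes on each array, with controls in blue and Klf5-deleted arrays in red, replicates 1 to 3 from left, and the mean and SD of 3 arrays as lines; every panel spans 2 log2 units. The groups are separate in every panel except Lyve1, but the 10 genes are a chosen subset of the members. Over all members the groups overlapped for 21 and were separate for 15, or 41.7%, against 20.5% of all genes. The largest gap between means is that of Angpt2, 9.72 against 8.95.

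Of the 3 pericyte genes none passed. Pdgfrb, the receptor that holds pericytes to vessels and is also made by stroma, read 11.78, 11.52 and 11.74 in the Klf5-deleted and 11.66, 11.53 and 11.65 in the control arrays, with overlapping groups and a difference of 0.07. Cspg4, the proteoglycan NG2 of pericytes and smooth muscle, read 9.44, 9.05 and 9.39 against 9.65, 9.51 and 9.46. Its groups were separate by 0.02, and the difference was -0.24 (SE 0.11, adjusted p = 0.397 by limma). Rgs5, a regulator of G-protein signalling typical of pericytes, differed by -0.21. The mean of 10 smooth muscle markers was also lower in each Klf5-deleted array, at 11.81 to 12.01 against 12.04 to 12.33, and its part in the pericyte readings was not tested.

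The members were not evenly high or low over the arrays. Klf5-deleted 3 was the lowest array for 21 of the 36 genes, and control 1 was the highest for 22. Each gene's deviation from its own mean had a median of -0.146 on Klf5-deleted 3 and 0.155 on control 1. The other 4 arrays lay between -0.025 and 0.045, with control 2 at -0.025 and Klf5-deleted 1 at -0.024, so control 2 did not stand above the Klf5-deleted arrays 1 and 2. The medians of all tested genes ran from 8.43 to 8.50. No member was lowest on control 3.

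**Figure D4:**
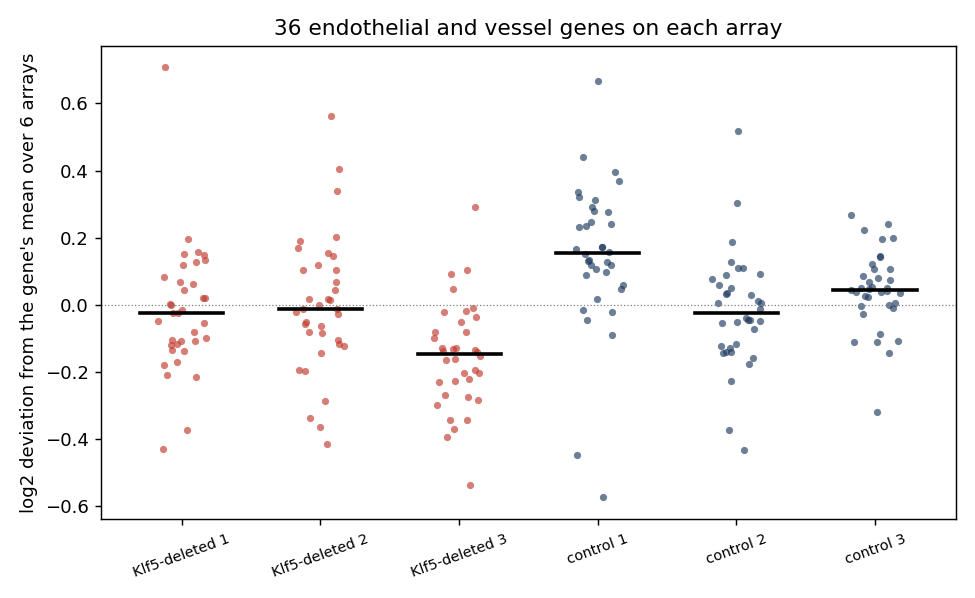
Deviation of each of the 36 genes from its own mean over the 6 arrays (y axis, log2), by array, with the median as a bar, from the deposited values. Klf5-deleted 3 and control 1 hold the extreme medians, -0.146 and 0.155, and the other 4 arrays lie near 0.

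Further vascular lists were read in the same fit. Among 30 other endothelial genes none passed. Below the control mean were 23 and above it 7, and the median was -0.114, or -0.066 without Klf5-deleted 3. Housekeeping centring turned the median to 0.103, and 1 gene then passed. Epas1, the hypoxia-inducible factor of endothelium, had the largest difference, -0.44 (SE 0.14, adjusted p = 0.201 by limma). Of 17 arterial, venous and tip cell genes 1 fell and 16 did not pass, with a median of -0.145, or 0.072 with that centring. The gene that fell was Acvrl1, the endothelial receptor for BMP9 that partners with Eng. It read 9.75, 9.67 and 9.75 in the Klf5-deleted and 10.15, 10.18 and 10.07 in the control arrays, a difference of -0.41 (SE 0.06, adjusted p = 0.0261 by limma). The groups were well apart. The call was lost in all 6 fits that left out 1 array, with adjusted p of 0.0552 to 0.103 by limma, and with housekeeping centring, at -0.19 and 0.188. The median of this list was -0.024 without Klf5-deleted 1 and -0.08 without control 1.

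Of 21 measured genes of VEGF, angiopoietin, apelin and PDGF signalling 1 fell, 1 rose and 19 did not pass, with a median of 0.029, or 0.246 with arrays centred on housekeeping genes. Thbs1, the secreted angiogenesis inhibitor thrombospondin 1, read 11.54, 11.43 and 11.56 in the Klf5-deleted and 12.12, 12.21 and 12.01 in the control arrays, and fell by 0.60 (SE 0.08, adjusted p = 0.0103 by limma). Vash2, a vasohibin that promotes vessel growth, read 10.18, 10.22 and 10.18 against 9.78, 9.84 and 9.86, and rose by 0.37 (SE 0.06, adjusted p = 0.0263 by limma). Both had groups far apart relative to their spread. The call of Thbs1 was lost without Klf5-deleted 1 or control 1, with adjusted p of 0.0526 and 0.053, and that of Vash2 in all 6 such fits, with adjusted p of 0.0651 to 0.109 by limma. After housekeeping centring 7 of the 21 passed, and without Klf5-deleted 2 the median of the list was 0.002. Both genes are also made by cells other than endothelium.

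Of 14 measured further pericyte genes 1 fell and 13 did not pass, with a median of -0.219, or -0.002 after housekeeping centring and -0.141 without Klf5-deleted 2. Ndufa4l2, a mitochondrial protein of pericytes and a hypoxia target, read 7.41, 7.51 and 7.77 in the Klf5-deleted and 8.86, 8.53 and 8.22 in the control arrays, and fell by 0.97 (SE 0.17, adjusted p = 0.035 by limma). Among 14 genes raised by low oxygen 1 fell and 13 did not pass, with a median of -0.084, or 0.132 after that centring, -0.18 with dim genes left out, -0.055 without Klf5-deleted 1 and -0.129 without control 2. Egln3, a prolyl hydroxylase of the hypoxia response, read 8.99, 9.26 and 9.62 against 10.64, 10.22 and 10.18, and fell by 1.06 (SE 0.18, adjusted p = 0.0359 by limma). Both genes had all Klf5-deleted arrays below all controls. Of 6 fits that left out 1 array, Ndufa4l2 passed in 1, without control 3, with adjusted p up to 0.143 by limma in the others. Egln3 passed in 2, without Klf5-deleted 3 or control 2, with adjusted p up to 0.137 by limma in the others. With dim genes left out, no gene of the further pericyte list passed.

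None of 9 measured further lymphatic genes passed as deposited with the standard variance model. In 4 other settings 1 passed: arrays centred on the median of all genes, arrays centred on housekeeping genes, dim genes left out, and the trended, robust variance model. Their median was 0.078 as deposited, 0.295 after housekeeping centring, and 0.156, 0 and -0.017 with controls 2, 1 and 3 left out in that order. Leaving out Klf5-deleted 1 gave 0.044. Foxc2, a forkhead factor of lymphatic valves that stroma also makes, read 9.08, 9.43 and 9.26 in the Klf5-deleted and 8.67, 8.86 and 8.64 in the control arrays, a difference of 0.53 (SE 0.11, adjusted p = 0.0599 by limma). Of the 9 genes Foxc2 had all Klf5-deleted arrays above the controls and Itga9, an integrin subunit of lymphatic valves, had all below, where 8.67% and 11.8% of all genes did.

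Markers of other cell types were read beside these. Of 15 urothelial and epithelial genes 12 fell and none rose, with Upk2, Krt8, Upk1b and Upk1a differing by -3.19, -1.77, -2.35 and -2.72, so the members' differences were small against those of the epithelium. Of 10 smooth muscle genes Synpo2 fell by 0.38, a call that no fit without 1 array kept. That call was also lost with arrays centred on the median of all genes or on housekeeping genes, and with the replicate block. Itgb3 fell by 0.87 among 5 measured platelet genes. Of 6 mesothelial genes Msln fell by 1.42, Wt1 rose by 0.54 and Krt19, also in the epithelial list, fell by 1.46. The mesothelial genes Upk3b, Lrrn4 and Gpm6a differed by -0.32, 0.39 and 0.36 and did not pass. Without 1 array, 2 or 3 mesothelial genes passed. Itgb3, which codes for an integrin subunit of platelets and also of growing endothelium, read 9.53, 9.51 and 9.52 in the Klf5-deleted and 10.53, 10.48 and 10.15 in the control arrays, and its adjusted p was 0.0504 by limma without Klf5-deleted 1. The platelet gene Pf4 differed by -0.30 with overlapping groups. None of 10 leukocyte, 8 red cell, 6 placental, 10 yolk sac and liver, 8 neuronal and glial and 9 skeletal muscle genes passed. Their largest differences were -0.56 for Lyz2, 0.56 for Hbb-bh1, -1.44 for Prl8a9, -0.77 for Ttr, -0.40 for Ednrb and 1.26 for Myh3. Red cell markers averaged 10.11 to 10.68 on the Klf5-deleted and 9.56 to 10.99 on the control arrays, lowest on control 1 and highest on control 2.

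**Figure D5:**
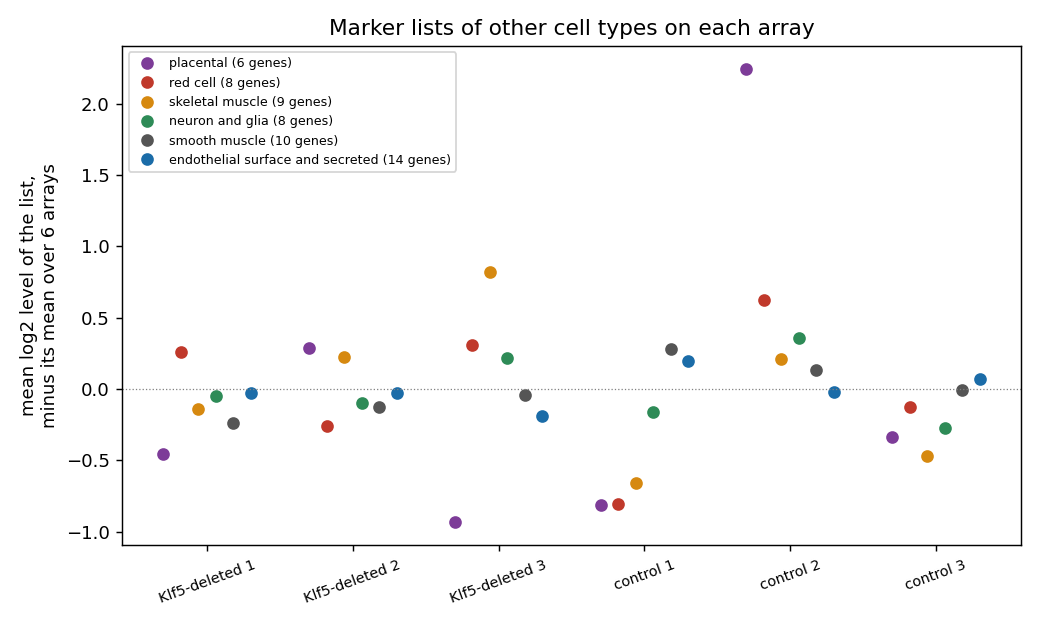
Mean log2 level of marker lists on each array, minus the list's mean over the 6 arrays; each point is 1 list on 1 array. Placental markers stand out on control 2, at 9.85 against 6.67 to 7.89 elsewhere. The 14 endothelial surface and secreted genes vary least of the 6 lists plotted, between 9.98 and 10.37 on the deposited scale. Lists not plotted vary less, such as the 30 other endothelial genes, between 9.20 and 9.39.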

How the data were processed

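Expression was measured on 6 arrays, 3 per genotype. The authors deposited log2 expression values made with RMA (background correction, quantile normalization and probe summary), per the submitters' processing notes. For the RMA software, its version and the probe build, the sources used here state nothing. The log2 scale was read from the range of values, 3.24 to 14.65. RMA compresses differences of dim genes, no feature could be called above background, and the number of arrays limits the precision. Of 35557 features, 21789 carried 1 gene symbol, 1621 several and 12147 were unnamed here; a gene with several features was read from the one of highest mean, which left 19938 genes, 19856 of them matched by Entrez identifier to a RefSeq table of GRCm38.p6.

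Klf5-deleted minus control was fitted over all genes with limma 3.58.1 in R 4.3.3 (lmFit, eBayes, two-sided), with Benjamini-Hochberg adjustment over all genes and a threshold of 0.05. An exact permutation of 3 against 3 arrays cannot give a p under 0.1. In 20 simulated runs of 200 changed genes among 19938, with independent genes, limma recovered 96.4% at a log2 shift of 1 and 70.2% at 0.5, and 5.84% of calls were unchanged genes. The simulated noise was normal, without foreign RNA on any array. Shifts as small as the members' median of -0.158 were not simulated. The members, the 17 further lists and the naming rule were chosen with earlier results of these data known. The rule gave array values for members past the threshold, with separate groups or with the largest rise or fall of a role, and for Pecam1, Cdh5, Kdr, Vegfa, Lyve1 and Pdgfrb, and for each further list its genes past the threshold, at most 4, or the gene with the largest difference; the array values of Foxc2, and Pf4, Acta2, Tpbpa and Itga9, were added after they were seen. Adm, Des and Krt19 count in 2 lists each. Alternatives were other scalings, a filter on dim genes, averaged features, another variance model, a replicate block and leaving out each array.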

Additional observations from a re-analysis of the deposited data

How the results depend on the processing

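Across 7 alternative settings and 6 fits without 1 array, the count of the 36 members past the threshold was 0 except with arrays centred on housekeeping genes, where 3 passed (Vegfc, Angpt2 and Prox1), and without control 2, where 1 passed (Prox1). That centring gave 1948 genes past the threshold in place of 395, 12 members lower in place of 31 and a members' median of 0.059 in place of -0.158, and turned 19 members from below to above 0: Pecam1 0.18, Cdh5 0.017, Emcn 0.22, Eng 0.13, Egfl7 0.081, Robo4 0.041, Plvap 0.008, Nos3 0.098, Mmrn2 0.045, Ecscr 0.17, Erg 0.027, Fli1 0.21, Flt4 0.073, Tek 0.15, Aplnr 0.090, Vegfa 0.19, Angpt1 0.16, Pdgfb 0.17, Rgs5 0.005. Centring on the median of all genes turned 4: Pecam1 0.007, Emcn 0.040, Fli1 0.030, Vegfa 0.016. Quantile normalization turned Emcn, at 0.015. None of these turned differences passed the threshold by limma. Leaving out the dimmer genes gave 239 past the threshold among fewer genes tested, and the members' call was 0 among 33. Same-numbered arrays of the 2 groups had deviations that correlated at 0.00915, 0.0313 and 0.0787, so the numbers were not taken as pairs; with the replicate block 110 genes and no member passed, and the calls of Klf5 (adjusted p 0.137), Thbs1 (0.0793), Vash2 (0.118), Acvrl1 (0.122), Ndufa4l2 (0.142) and Egln3 (0.144) were lost by limma. Without 1 array, 141 to 349 genes and 0 to 1 members passed, 24 to 32 members were lower, and the members' median ran from -0.219 to -0.105. In those fits 27 of 36 members kept their sign, and the others ranged as follows: Pecam1 -0.13 to 0.060, Emcn -0.071 to 0.10, Ecscr -0.12 to 0.025, Fli1 -0.091 to 0.051, Kdr -0.047 to 0.12, Tek -0.28 to 0.12, Vegfa -0.062 to 0.009, Angpt1 -0.36 to 0.19, Pdgfb -0.12 to 0.011. Averaging features cannot change a member's difference, because each member has 1 feature. The trended, robust variance model cannot change a difference either, nor can the replicate block, because each block holds 1 array of each group. Leaving out dim genes cannot change the difference of a gene that stays in. None of these settings therefore tests the signs. No member's call changed in these settings. Housekeeping centring added the same amount, set by B2m, Pgk1 and Sdha, to every gene's difference. The cause of the other changes was not tested.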
